A study of Mus musculus with 9 samples.

Results

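The TNF superfamily is a set of membrane-bound or secreted ligands that act as trimers, together with the transmembrane receptors that bind them. Its members were followed in mouse left ventricle after ischemia-reperfusion (I/R). They were all protein-coding genes whose GENCODE symbol is Tnf, Fas, Fasl, Cd40, Cd27, Lta, Ltb or Ltbr, or begins with Tnfsf or Tnfrsf. This rule found 40 of the 38293 genes in the count table, of which 16 encode ligands and 24 receptors. Of these, 20 passed the filter on low counts and were tested, 3 ligands and 17 receptors, and 20 had too few reads for a test, among them Tnfsfm13, which had none in any library.

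RNA came from 9 male C57BL/6 mice aged 8 weeks. In the I/R mice the left anterior descending coronary artery was tied for 1 hour and then released, and the ventricle was sampled in its infarct region 1 day (3 mice, numbered 4, 5 and 6) or 14 days (3 mice) after surgery. Sham mice (3, numbered 1, 2 and 3) had a sham operation. Their samples carry the same tissue label, and the labels give no collection time for them. The 3 count columns at 14 days all carry the name of the same mouse. They were taken as the 3 mice of this group and are called A, B and C here, as names only. The tissue is a mixture of all cells of the ventricle. In it, fewer cells of a type and less RNA per cell cannot be told apart.

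As background, some receptors of the family (Tnfrsf1a, Fas, Tnfrsf10b) carry an intracellular death domain that can assemble caspase or RIP kinase complexes. Most others bind TRAF adapters and pass the signal to NF-kappa-B and to MAP kinases, and decoy receptors bind a ligand without passing a full signal. In the heart, TNF is known as an early cytokine of injury, and the TNF-like ligand Tnfsf12 (TWEAK) with its receptor Tnfrsf12a is known for responses of cardiomyocytes and fibroblasts to stress.

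Library totals ran from 20.2M to 36.8M counts, and mitochondrially encoded and ribosomal RNA genes took 52.3% to 72.0% of them. Levels are given as CPM, counts per 1M counts of the scaled library. Cardiomyocyte markers were abundant in every library, with a summed level of 56902 to 63615 CPM in sham, 32140 to 47902 at 1 day and 44011 to 57264 at 14 days, and none of the 6 was at 0. Mouse 6 stood apart from mice 4 and 5: its 6 neutrophil markers summed to 15.9 CPM, against 48.5 in mouse 4 and 53.3 in mouse 5, and to 1.21 to 3.96 in sham, with Ly6g at 0 in all 9 libraries. All reads assigned to the family summed to 74.9 to 75.7 CPM in sham, 124 to 164 at 1 day, where mouse 6 was lowest, and 76.9 to 100 at 14 days. Ligands held 15.6% to 19.0% of the family's counts in sham, 7.32% to 11.0% at 1 day and 16.2% to 18.5% at 14 days. The lower share at 1 day was not a lower ligand level. Every 1-day ligand sum lay within the sham range of 11.8 to 14.4 CPM. The TRAF-binding receptors summed to 31.9 to 35.3 CPM in sham and 65.6 to 101 CPM at 1 day.

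Tnfrsf12a had the highest ratio to sham at 1 day among the tested receptors, and Tnf among the tested ligands. Among the ligands below the filter with reads in sham it was Tnfsf14. Ltb lies beside Tnf, as does Lta, which was not chosen for display. Shown here are the genomic stretches before the start of 4 members, Tnfrsf12a, Tnf, Ltb and Tnfsf14. They were read from RefSeq (GRCm38.p6), 5′ to 3′ on the gene's own strand, from 250 bases before the RefSeq start and no further than the base before the GENCODE gene, which leaves out the last 68 bases for Ltb and the last 19 for Tnfrsf12a. Capitals mark a match to the kappa-B consensus in Ltb and to the AP-1 motif in Tnfsf14, and the other stretches hold neither. Tnfrsf12a is chr17:23677469-23677699 on the minus strand, Tnf chr17:35202008-35202257 on the minus strand, Ltb chr17:35194257-35194438 on the plus strand and Tnfsf14 chr17:57194182-57194431 on the minus strand.
Tnfrsf12a: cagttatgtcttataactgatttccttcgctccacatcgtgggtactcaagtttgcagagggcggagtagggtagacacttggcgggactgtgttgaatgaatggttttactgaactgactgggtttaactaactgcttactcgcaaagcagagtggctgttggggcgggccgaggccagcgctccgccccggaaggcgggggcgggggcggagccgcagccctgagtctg
Tnf: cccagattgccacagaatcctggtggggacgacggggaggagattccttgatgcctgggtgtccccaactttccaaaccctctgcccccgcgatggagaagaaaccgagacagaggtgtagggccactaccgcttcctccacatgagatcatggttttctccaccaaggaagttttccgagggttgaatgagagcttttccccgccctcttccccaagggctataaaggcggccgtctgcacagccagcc
Ltb: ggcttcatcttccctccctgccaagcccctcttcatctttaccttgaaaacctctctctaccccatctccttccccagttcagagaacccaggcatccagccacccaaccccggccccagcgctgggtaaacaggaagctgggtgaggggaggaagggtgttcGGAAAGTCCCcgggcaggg
Tnfsf14: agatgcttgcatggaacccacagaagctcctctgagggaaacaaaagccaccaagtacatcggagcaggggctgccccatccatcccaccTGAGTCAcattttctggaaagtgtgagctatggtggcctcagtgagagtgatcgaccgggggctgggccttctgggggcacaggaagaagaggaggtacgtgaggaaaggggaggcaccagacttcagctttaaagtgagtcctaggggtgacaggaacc
The kappa-B match in Ltb begins 19 bases before the end of the printed stretch, and the AP-1 match in Tnfsf14 160 bases before its end. RefSeq windows of 250 bases before to 50 after a start were found for 32 of the 40 members, 36 windows in all. In 27 of them the first 30 bases from the start lie somewhere within a GENCODE transcript of the gene. The window of Tnfsf14 was not among these 27. The 250 bases before the start were searched on both strands. The kappa-B consensus was in 4 of these 36 windows (11.1%) and in 7.25% of all 32851 promoter windows. The AP-1 motif, TGACTCA or TGAGTCA, was in 6 of 36 (16.7%) and in 4.46% of all windows. In no window did a match of one overlap a match of the other. Besides Ltb, the kappa-B matches were in windows of Tnfrsf8, Tnfrsf9 and Tnfrsf25, and besides Tnfsf14 the AP-1 matches were in windows of Fas, Tnfsf13, Tnfsf13b, Tnfrsf8 and Tnfrsf9. Among the 8 windows of members that were higher at 1 day, 0 held either motif, and the window of Lta held neither. A match is a description of these letters only.

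At 1 day after I/R, 11 of the 20 tested members were higher than in sham, 2 were lower and 7 did not pass the test (edgeR quasi-likelihood test, Benjamini-Hochberg adjusted p under 0.05). Over all 14124 genes tested, 54.2% were called in this comparison, 29.4% higher and 24.8% lower. The median log2 fold was 1.06 over the tested members and 0.04 over all genes tested. The members that rose were the ligand Tnf and 10 receptors, led by Tnfrsf12a. The receptor Tnfrsf19 and the ligand Tnfsf10 fell. Levels at 1 day lay above all sham levels in 12 tested members, Tnfrsf11b and those that rose, and below them in 2, where 33.5% and 29.7% of all genes tested had such groups without overlap. In all 11 members that rose, mouse 6 had the lowest level of the 3 mice, and in both that fell it had the highest. How often this was so over all genes is not given here. Over all genes, 4638 were called higher and 3873 lower without mouse 6, against 4153 and 3496 with it. Without mouse 6 the same 11 were higher, with Ltb, Tnfsf14 and Tnfsf9, which then passed the filter, and the same 2 were lower. The part that the different neutrophil and cardiomyocyte marker levels of mouse 6 play in this was not tested.

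**Figure D1:**
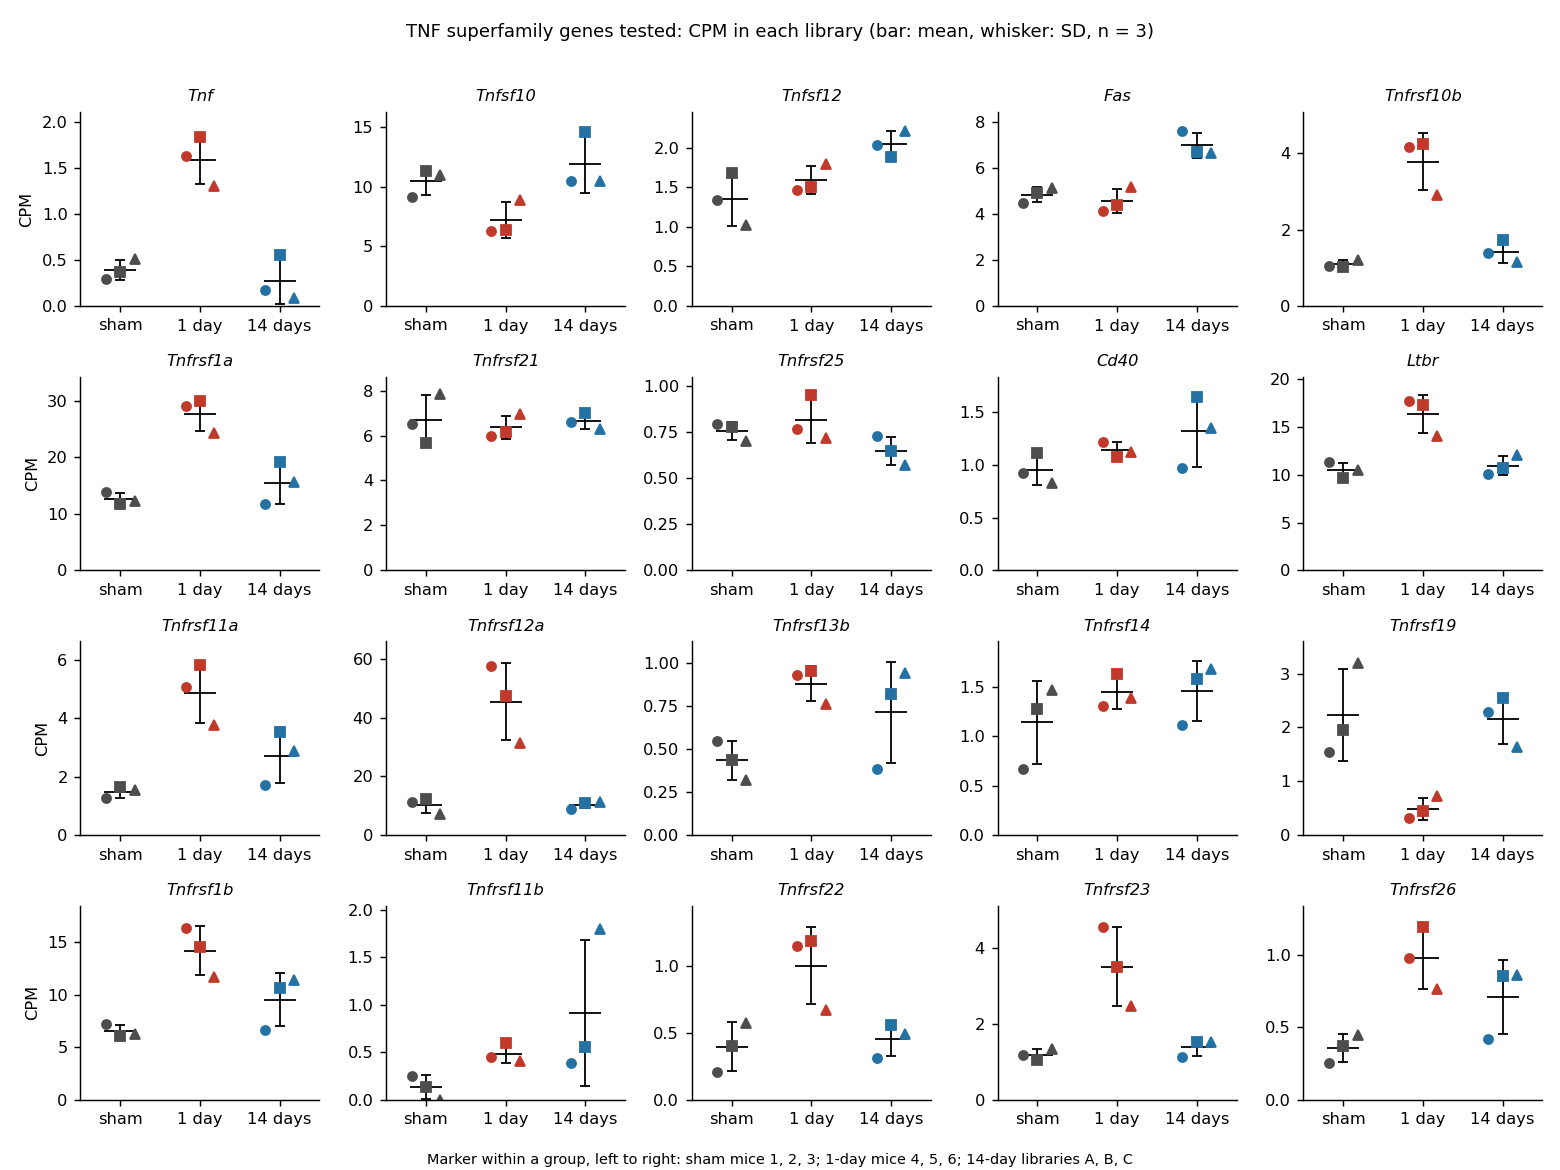
Level in CPM (linear axes from 0, scaled per panel) of the 20 tested members in each of the 9 libraries, with the group mean as a bar and the SD as a whisker (n = 3). The 1-day libraries of Tnfrsf12a, at 31.5 to 57.5 CPM, lie above all sham and 14-day libraries, and those of Tnfrsf19, at 0.317 to 0.717 CPM, lie below them.

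Among the ligands, Tnf, the cytokine that gives the family its name (ENSMUSG00000024401, chromosome 17, 35199381 to 35202007, minus strand of GRCm38), was at 0.293, 0.371 and 0.511 CPM in sham mice 1, 2 and 3. Mice 4, 5 and 6 had 1.63, 1.83 and 1.30 CPM, and the 14-day libraries A, B and C had 0.173, 0.557 and 0.0818 CPM. Every 1-day library lay above every library of the other groups, while sham and 14 days overlapped. The fold against sham was 4.16 at 1 day (log2 2.06, SE 0.44, edgeR adjusted p = 0.0022). At 14 days Tnf stood at a log2 fold of -0.38 (SE 0.55, edgeR adjusted p = 0.682) against sham, a value that was -1.50 without library B, -0.12 without A, -0.03 without C and -0.21 without sham mouse 3. These levels rest on few reads, 26 over the sham libraries, 147 over the 1-day libraries and 26 over the 14-day libraries.

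Tnfsf10 (TRAIL, chromosome 3, 27317028 to 27342427), a ligand that can trigger cell death through Tnfrsf10b, had 9.13, 11.3 and 11.0 CPM in sham. It had 6.27, 6.39 and 8.92 CPM in mice 4, 5 and 6 and 10.5, 14.6 and 10.5 CPM in libraries A, B and C. The 1-day libraries lay below all sham libraries, mouse 6 only just. The log2 fold at 1 day was -0.55 (SE 0.17, edgeR adjusted p = 0.0193). Leaving out mouse 2 or 3 of the sham group, or mouse 4 or 5, ended this call, as did scaling by total count only, where the log2 fold was -0.08.

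Tnfsf12 (TWEAK, chromosome 11, 69686250 to 69695849), the ligand of Tnfrsf12a, had 1.34, 1.68 and 1.02 CPM in sham and 1.47, 1.51 and 1.79 CPM at 1 day. At 14 days it had 2.04, 1.88 and 2.21 CPM. The sham and 1-day ranges overlapped (log2 fold 0.19, SE 0.22, edgeR adjusted p = 0.538). The 14-day libraries lay above all others, at a log2 fold of 0.55 against sham that did not pass the test (SE 0.21, edgeR adjusted p = 0.0998). Tnfsf12 shares 48.2% of its exonic bases with Tnfsfm13, so its counts are uncertain.

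Tnfrsf12a, the receptor of Tnfsf12 (ENSMUSG00000023905, chromosome 17, 23675445 to 23677468, minus strand), had 11.3, 12.2 and 7.22 CPM in sham mice 1, 2 and 3. Mice 4, 5 and 6 had 57.5, 47.4 and 31.5 CPM, and libraries A, B and C had 8.86, 10.9 and 11.2 CPM. Every 1-day library lay above all other libraries, and sham and 14 days overlapped. The receptor was 4.39-fold higher at 1 day than in sham (log2 2.14, SE 0.24, edgeR adjusted p = 1.10e-04), and its log2 fold at 14 days was -0.01 (SE 0.24). Receptor and ligand thus had log2 folds of 2.14 and 0.19 at 1 day.

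Of the 5 death domain receptors, all tested, Tnfrsf1a and Tnfrsf10b rose at 1 day and Fas, Tnfrsf21 and Tnfrsf25 did not pass the test. Tnfrsf1a, the broadly expressed TNF receptor (chromosome 6, 125349362 to 125362484, plus strand), had 13.8, 11.8 and 12.2 CPM in sham. It had 29.0, 29.9 and 24.3 CPM in mice 4, 5 and 6 and 11.7, 19.2 and 15.6 CPM in libraries A, B and C. Its fold at 1 day was 2.20 (log2 1.14, SE 0.16, edgeR adjusted p = 2.48e-04), with no overlap.

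Tnfrsf10b, the death receptor for Tnfsf10 (chromosome 14, 69767472 to 69784411, plus strand), had 1.05, 1.01 and 1.21 CPM in sham and 4.16, 4.25 and 2.91 CPM at 1 day. At 14 days it had 1.39, 1.73 and 1.14 CPM. The fold at 1 day was 3.52 (log2 1.82, SE 0.22, edgeR adjusted p = 9.8e-05), in the opposite direction to its ligand. Sham and 14 days overlapped, and the log2 fold there was 0.41 (edgeR adjusted p = 0.274).

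Fas, the receptor of Fasl (chromosome 19, 34290666 to 34327772, plus strand), followed another course. Its level was 4.48, 4.92 and 5.11 CPM in sham and 4.14, 4.37 and 5.15 CPM in mice 4, 5 and 6, which overlapped (log2 fold -0.09, SE 0.13). Libraries A, B and C had 7.62, 6.68 and 6.66 CPM, above all others. Tnfrsf21, a death receptor known from neurons and T cells, was between 5.66 and 7.86 CPM in all 9 libraries, and Tnfrsf25, the receptor of Tnfsf15, between 0.572 and 0.953 CPM. Their log2 folds at 1 day were -0.06 (SE 0.13) and 0.09 (SE 0.25).

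Among the 15 TRAF-binding receptors, 8 were tested, of which 5 rose at 1 day, 1 fell and 2 did not pass the test. Tnfrsf1b, the TNF receptor of leukocytes and endothelium (chromosome 4, 145213463 to 145246870), had 7.20, 6.10 and 6.26 CPM in sham and 16.4, 14.5 and 11.7 CPM at 1 day. Libraries A, B and C had 6.61, 10.6 and 11.4 CPM. The fold at 1 day was 2.19 (log2 1.13, SE 0.20, edgeR adjusted p = 7.84e-04), close to that of Tnfrsf1a (2.20).

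Ltbr, the lymphotoxin beta receptor, which also binds Tnfsf14 (chromosome 6, 125306571 to 125313885), had 11.3, 9.71 and 10.5 CPM in sham. It had 17.7, 17.3 and 14.1 CPM at 1 day and 10.1, 10.7 and 12.1 CPM at 14 days. The 1-day libraries lay above all others (log2 fold 0.64, SE 0.12, edgeR adjusted p = 9.15e-04), a smaller change than in the TNF receptors.

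Tnfrsf11a, known as RANK, the receptor of Tnfsf11 in osteoclasts and macrophage lineage cells (chromosome 1, 105780718 to 105847981), had 1.26, 1.65 and 1.53 CPM in sham and 5.05, 5.80 and 3.76 CPM at 1 day. Libraries A, B and C had 1.70, 3.52 and 2.86 CPM. The fold at 1 day was 3.29 (log2 1.72, SE 0.27, edgeR adjusted p = 3.82e-04). Its ligand Tnfsf11 had 4, 7 and 7 reads over the sham, 1-day and 14-day libraries.

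Tnfrsf19, an orphan receptor known from embryonic and stem cells (ENSMUSG00000060548, chromosome 14, 60963875 to 61046490, minus strand), was the member with the deepest fall. It had 1.55, 1.95 and 3.19 CPM in sham, 0.317, 0.437 and 0.717 CPM in mice 4, 5 and 6, and 2.29, 2.55 and 1.64 CPM in libraries A, B and C. The 1-day libraries lay below all others, and sham and 14 days overlapped. The level at 1 day was 4.67-fold lower than in sham (log2 -2.22, SE 0.36, edgeR adjusted p = 4.84e-04).

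Tnfrsf13b (TACI), a B cell receptor of Tnfsf13 and Tnfsf13b, had 0.544, 0.438 and 0.319 CPM in sham and 0.928, 0.953 and 0.762 CPM at 1 day. Its log2 fold of 0.99 (SE 0.36, edgeR adjusted p = 0.0348) was not called by DESeq2, nor when mouse 2 or 3 (sham) or mouse 4 or 5 was left out. The 6 B cell and plasma cell markers summed to 1.09 to 1.38 CPM in sham, 0.448 to 1.19 at 1 day and 1.35 to 3.64 at 14 days, and none was at 0 in a whole group. Cd40, the receptor of antigen-presenting cells, was between 0.831 and 1.64 CPM in all libraries (log2 fold at 1 day 0.24, SE 0.25). Tnfrsf14, the second receptor of Tnfsf14, was between 0.670 and 1.68 CPM (log2 fold 0.35, SE 0.29).

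Of the 3 decoy receptors, Tnfrsf22 and Tnfrsf23, which bind Tnfsf10 in mice, rose at 1 day. With Tnfrsf26, a related receptor of unknown ligand, they form a cluster on chromosome 7, in which 6083 bases separate Tnfrsf26 from Tnfrsf22 and 16147 separate Tnfrsf22 from Tnfrsf23. Tnfrsf23 had 1.17, 1.04 and 1.34 CPM in sham, 4.55, 3.49 and 2.46 CPM at 1 day and 1.11, 1.52 and 1.51 CPM at 14 days (log2 fold at 1 day 1.60, SE 0.25, edgeR adjusted p = 3.85e-04). Tnfrsf22 had 0.209, 0.404 and 0.575 CPM in sham and 1.15, 1.19 and 0.672 CPM at 1 day (log2 fold 1.42, SE 0.38, edgeR adjusted p = 0.00819). Tnfrsf26 had 0.251, 0.371 and 0.447 CPM in sham and 0.973, 1.19 and 0.762 CPM at 1 day (log2 fold 1.48, SE 0.37, edgeR adjusted p = 0.00543). In each of the 3, every 1-day library lay above every sham library. The genes are near copies of one another and the handling of reads with several matches is not given in the sources used here, so the split of reads among them is uncertain.

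The third decoy, Tnfrsf11b (osteoprotegerin, chromosome 15, 54250619 to 54278484), binds Tnfsf11 and Tnfsf10 in solution. It had 6, 4 and 0 reads in sham mice 1, 2 and 3, then 20, 15 and 9 in mice 4, 5 and 6. In CPM these were 0.251, 0.135 and 0 against 0.453, 0.596 and 0.403, with no overlap. The log2 fold of 1.72 (SE 0.81) did not pass the test (edgeR adjusted p = 0.0947), although DESeq2, scaling by total count only, a fit of the 2 groups alone and the fit without library C called it.

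**Figure D2:**
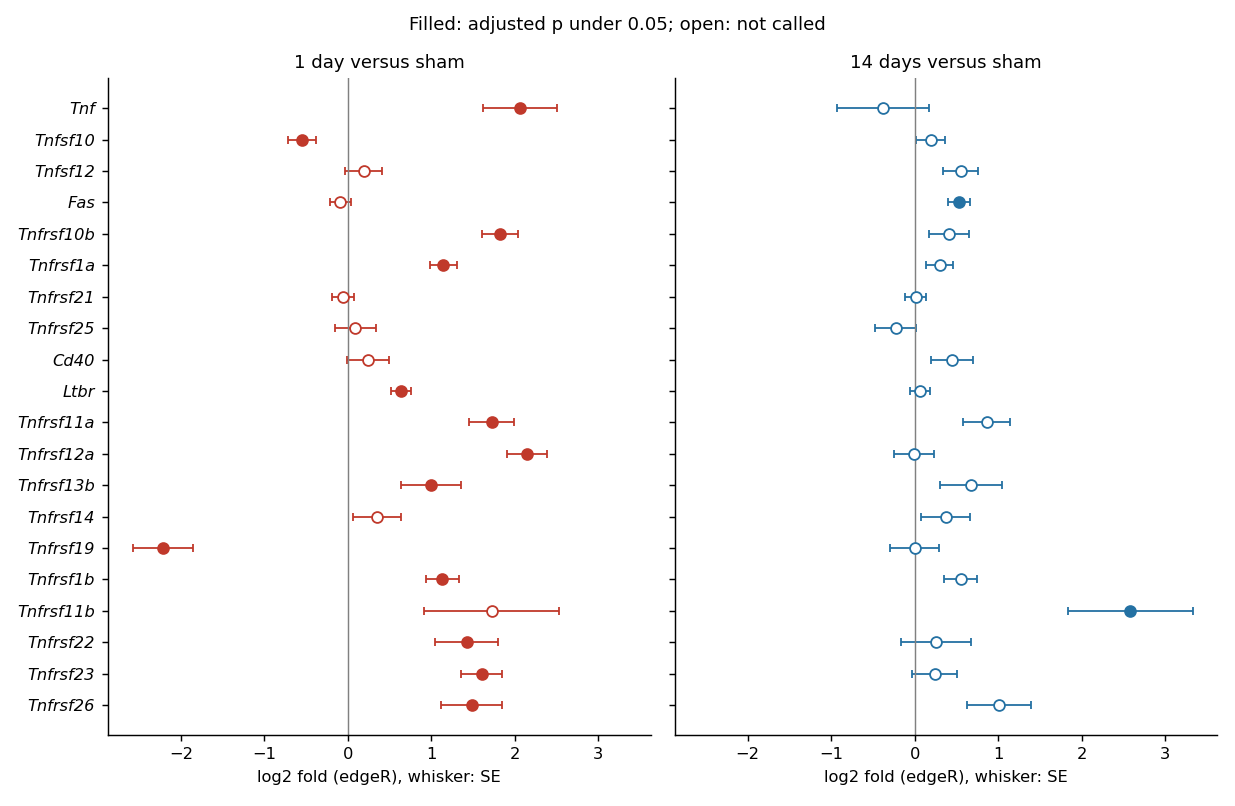
Log2 fold against sham (horizontal axis) of the 20 tested members at 1 day and at 14 days, from the edgeR fit, with the SE as a whisker and filled points where the adjusted p is under 0.05. At 1 day 11 members are filled to the right of 0 and 2 to the left, and at 14 days Fas (0.53) and Tnfrsf11b (2.58) are filled.

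At 14 days, 2 of the 20 tested members were higher than in sham and 0 were lower, where 14.4% of all genes tested were called (8.75% higher, 5.64% lower). The 2 were Fas and Tnfrsf11b. Below sham, edgeR found 0 members also at an unadjusted p under 0.05, and DESeq2 and limma-voom called 0. The median log2 fold was 0.34 over the tested members and 0.01 over all genes. Levels lay above all sham levels in 4 members, Fas, Tnfrsf11a, Tnfrsf11b and Tnfsf12, where 21.0% of all genes tested did so. Fas was 1.45-fold higher than in sham (log2 0.53, SE 0.13, edgeR adjusted p = 0.0192), with the 3 libraries at 6.66 to 7.62 CPM above the 4.48 to 5.11 CPM of sham. This call was lost without sham mouse 1, sham mouse 2, library B or library C, where the adjusted p was between 0.0565 and 0.0839, and with scaling by total count only.

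Tnfrsf11b had 11, 19 and 44 reads in libraries A, B and C, or 0.381, 0.557 and 1.80 CPM. All 3 lay above sham, and library C was far above the other two. The log2 fold was 2.58 (SE 0.75, edgeR adjusted p = 0.0429) with C, 1.68 (adjusted p = 0.128) without it and 3.28 (adjusted p = 0.0739) without sham mouse 1. The summed counts gave a ratio to sham of 5.86 with a 95% interval, for counting error only, of 3.01 to 12.7. The call was also lost without sham mouse 2 or 3, mouse 4, mouse 5 or library B, with limma-voom and with no filter on low counts. In a fit of sham and 14 days alone, Tnfrsf11b did not pass the filter and was not tested. The 6 fibroblast markers summed to 907, 1474 and 2202 CPM in A, B and C, against 340 to 472 in sham and 363 to 450 at 1 day, with none at 0. Their part in the level of Tnfrsf11b was not tested.

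Close to the threshold at 14 days stood Tnfrsf11a (log2 fold 0.86, SE 0.28, adjusted p = 0.0591), Tnfrsf1b (0.55, SE 0.20, adjusted p = 0.0894) and Tnfrsf26 (1.01, SE 0.38, adjusted p = 0.0988), all from edgeR. Library A was the lowest of the 14-day libraries in 13 of the 20 tested members, and its share over all genes is not given here. Without A, 6 members were called higher than in sham, among them Tnfrsf1a, Tnfrsf1b, Tnfrsf11a and Tnfrsf26. Over all genes, 1823 were called higher without A, against 1236 with it. Without sham mouse 1, sham mouse 2, library B or library C, 0 members were called, and 314 to 614 of all genes were called higher. The 6 macrophage markers summed to 82.2 CPM in A, 118 in B and 142 in C, and to 60.8 to 70.4 in sham, with none at 0, and their part in these levels was not tested.

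Between 14 days and 1 day, 9 of the 20 tested members were lower at the later time and 3 were higher, where 51.9% of all genes tested were called (26.8% lower, 25.1% higher). The median log2 fold was -0.39 over the tested members and 0.00 over all genes. Lower at 14 days were Tnf, Tnfrsf12a, Tnfrsf10b, Tnfrsf23, Tnfrsf22, Tnfrsf11a, Tnfrsf1a, Ltbr and Tnfrsf1b. Higher were Tnfrsf19, Tnfsf10 and Fas. The largest differences were 5.41-fold lower for Tnf, 4.42-fold lower for Tnfrsf12a and 4.68-fold higher for Tnfrsf19. The log2 difference of Tnf was -2.44, and -3.55 without library B. Both comparisons use the same 1-day libraries, so the falls after 1 day and the rises before it are not independent. Tnfrsf13b and Tnfrsf26, which rose at 1 day, did not pass the test of 14 days against 1 day (log2 folds -0.32, SE 0.32, and -0.47, SE 0.31).

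The 20 members below the filter had between 0 and 79 reads over all 9 libraries, and are given as reads summed over the 3 libraries of a group and as ratios per scaled library with 95% exact intervals that cover counting error only. Of the ligands, Tnfsf14 (LIGHT), which binds Ltbr and Tnfrsf14, had 1, 1 and 1 reads in sham mice 1, 2 and 3. It had 25, 13 and 2 reads in mice 4, 5 and 6, and 1, 1 and 3 in libraries A, B and C. The sums of 3 and 40 reads gave a ratio of 10.1 (3.21 to 50.9) at 1 day. Mouse 6 had few of these reads, as it had the lowest neutrophil marker sum, and the link was not tested.

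Ltb (lymphotoxin beta), the other ligand of Ltbr, had 6, 7 and 2 reads in sham, 30, 15 and 5 at 1 day and 5, 3 and 6 at 14 days. Its ratio to sham at 1 day was 2.52 (1.39 to 4.82), and mouse 6 overlapped sham. Tnfsf9, a costimulatory ligand of T cells, had 4, 5 and 0 reads in sham and 19, 12 and 6 at 1 day (ratio 3.10, 1.47 to 7.31). Its receptor Tnfrsf9 had 4 reads over sham and 18 over the 1-day libraries (3.40, 1.12 to 13.8). For Tnfsf18 the sums were 5 and 23 (3.47, 1.29 to 11.7), and for its receptor Tnfrsf18 they were 2 and 12 (4.53, 1.01 to 41.7). Tnfsf9 and Tnfrsf18 share 14.9% and 27.2% of their exonic bases with antisense genes. The interval of each of these ratios left out 1 but does not cover the spread between mice.

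**Figure D3:**
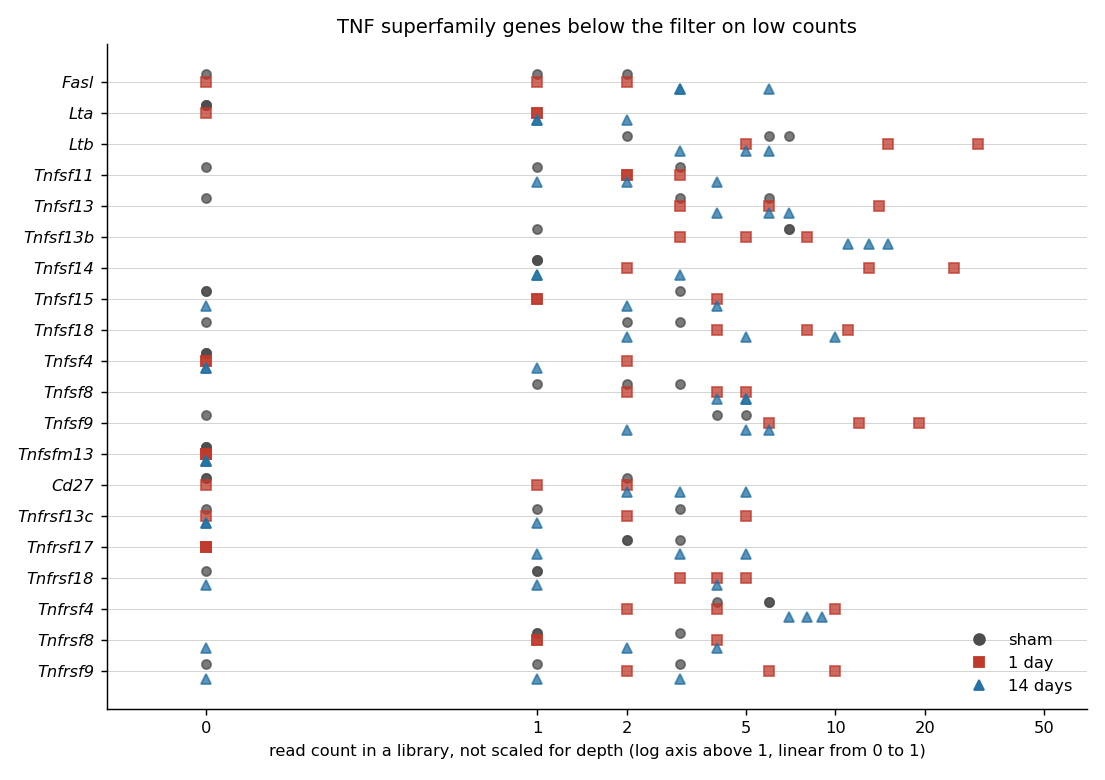
Reads per library, not scaled for depth (horizontal axis, logarithmic above 1 and linear from 0 to 1), of the 20 members below the filter, with a symbol and color per group. Libraries with equal counts lie on top of each other. The 2 highest 1-day libraries of Tnfsf14, at 13 and 25 reads, lie apart from the sham libraries at 1.

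Tnfsf13b (BAFF), the survival factor of B cells, showed its highest sum at 14 days. It had 1, 7 and 7 reads in sham, 8, 3 and 5 at 1 day and 11, 13 and 15 in A, B and C. The ratio of 14 days to sham was 2.06 (1.11 to 4.02). Tnfrsf17, a receptor of Tnfsf13b on plasma cells, had 7 reads over sham, 0 over the 1-day libraries and 9 over the 14-day libraries. A count of 0 allows up to 3 reads, so the lower level at 1 day rests on few reads. Fasl, the ligand of Fas, had 3, 3 and 12 reads over sham, 1 day and 14 days, a ratio of 14 days to sham of 3.17 (0.854 to 17.5). Cd27, a receptor of T cells, had 2, 3 and 10 reads (3.96, 0.843 to 37.1). The 6 T cell markers summed to 0.708 to 0.963 CPM in sham, 0.582 to 0.794 at 1 day and 0.900 to 1.96 at 14 days, and none was at 0 in a whole group.

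For the remaining 8 members with reads below the filter, sums over sham, 1 day and 14 days stayed low. Tnfsf13 had 9, 23 and 17 reads, and it shares 60.0% of its exonic bases with other genes. Tnfrsf4 had 16, 16 and 24 reads, Tnfsf8 had 6, 11 and 14, and Tnfrsf8 had 5, 6 and 6. Tnfsf15 had 3, 6 and 6 reads and Tnfrsf13c had 4, 7 and 1. Lta, which lies 1157 bases from Tnf, had 0, 2 and 4 reads, and Tnfsf4 had 0, 2 and 1. For these, 1 day against sham was not detectable at this depth. A fit with no filter on low counts, over 24016 genes, called Ltb, Tnfsf14 and Tnfsf9 higher and Tnfrsf17 lower at 1 day.

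Levels of different genes were compared per kilobase of exon. In sham, Tnfrsf12a (5.30 ± 1.38 CPM per kilobase, SD, n = 3), Tnfrsf1a (4.87 ± 0.413) and Ltbr (4.47 ± 0.349) were highest, and neighbours in this order overlapped. Fas (2.35 ± 0.157) followed and overlapped neither Ltbr nor Tnfsf10 (1.99 ± 0.220). Tnfsf10 was the most abundant ligand in sham, above Tnfsf12 (0.890 ± 0.219), and Tnf stood at 0.239 ± 0.0675, a level that overlapped its neighbours Tnfrsf11a and Tnfrsf10b.

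At 1 day the first 5 were Tnfrsf12a (23.5 ± 6.76 CPM per kilobase, SD, n = 3), Tnfrsf1a (10.7 ± 1.15), Ltbr (6.96 ± 0.836), Tnfrsf1b (3.73 ± 0.615) and Fas (2.21 ± 0.257), and no neighbours among them overlapped. Tnf (0.967 ± 0.163) had moved from place 15 in sham to place 10, within the range of Tnfrsf14 and Tnfrsf23. At 14 days Tnfrsf1a (5.98 ± 1.45), Tnfrsf12a (5.34 ± 0.655) and Ltbr (4.66 ± 0.446) again led and overlapped in order, followed by Fas (3.39 ± 0.264), which overlapped neither neighbour.

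**Figure D4:**
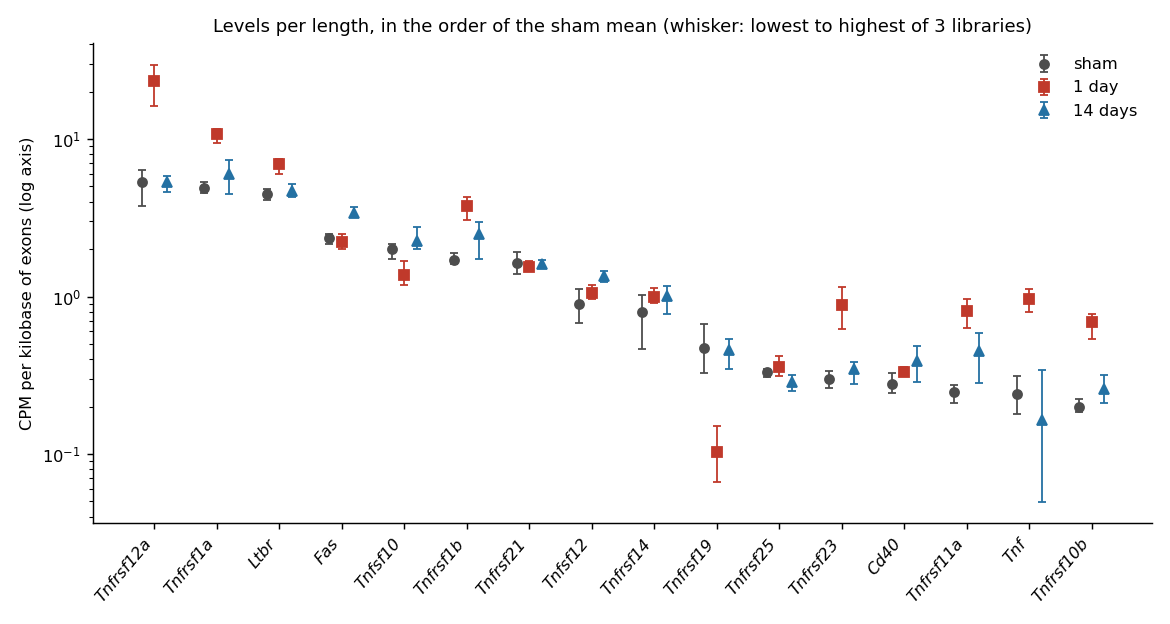
Mean level in CPM per kilobase of exon (logarithmic axis) of the 16 members with the highest sham means, by group, with a whisker from the lowest to the highest of 3 libraries. Tnfrsf12a rises from 5.30 in sham to 23.5 at 1 day, and Tnfrsf19 is the member whose 1-day point, at 0.103, lies far below both others.

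Several members lie side by side in the genome. Ltb, Tnf and Lta share a stretch of chromosome 17, with 3060 bases between Ltb and Tnf and 1157 between Tnf and Lta. The sums over sham and 1 day were 15 and 50 reads for Ltb, 26 and 147 for Tnf, and 0 and 2 for Lta. On chromosome 6, Ltbr and Tnfrsf1a, which both rose at 1 day, lie 35476 bases apart with Scnn1a between them, and Cd27 (2 and 3 reads) lies 69560 bases from Ltbr with Tuba3a between. On chromosome 4, Tnfrsf1b lies 20266 bases from Tnfrsf8 (5 and 6 reads). Tnfsf9 and Tnfsf14 lie on chromosome 17 with 81734 bases and Cd70 between them, and Cd70 had no reads.

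The intracellular part of the pathway was described with lists of adapters, NF-kappa-B genes and sheddases. Of 30 receptor adapters, kinases and caspases 29 were tested, of which 14 rose at 1 day, 1 fell and 14 did not pass the test, with a median log2 fold of 0.28 against 0.04 over all genes. Each of these counts at 1 day stands beside 29.4% higher and 24.8% lower over all genes tested. With scaling by total count only, 22 adapters rose, beside 6860 of all 14124 genes tested. Without mouse 4 Birc2 was also called lower. The highest were Ripk3, a kinase of necroptosis (log2 fold 1.85, SE 0.30), Otulin, which removes linear ubiquitin chains (1.71, SE 0.12), and Tradd, the adapter of Tnfrsf1a (1.36, SE 0.24). The kinase gene Map3k5 fell (-0.66, SE 0.10). Singled out after their values were seen, Casp8, the caspase of death receptor complexes (0.88, SE 0.16), Ripk1 (0.73, SE 0.17) and Mlkl, the necroptosis effector (1.24, SE 0.18), also rose.

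Of 12 NF-kappa-B subunit and kinase complex genes, all tested, 6 rose at 1 day, 0 fell and 6 did not pass the test (median log2 fold 0.36), beside 29.4% and 24.8% of all genes. Scaling by total count only called 11 of them higher, beside 6860 of all 14124 genes tested, and without mouse 6 Rel was called lower. Bcl3 (1.49, SE 0.24), Nfkbie (1.04, SE 0.28) and Nfkb2, the precursor of the subunit used by Ltbr signaling (0.85, SE 0.13), were highest. Nfkb1 did not pass the test (0.02, edgeR adjusted p = 0.897).

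Of 24 feedback and target genes of NF-kappa-B, 22 were tested, of which 15 rose at 1 day, 2 fell and 5 did not pass the test (median log2 fold 0.81), where 29.4% of all genes tested rose and 24.8% fell. The chemokine genes Ccl2 (3.99, SE 0.22) and Cxcl1 (3.39, SE 0.44) were among the highest. Il6, a cytokine gene, was the highest by the fit (5.14, and 8.05 without sham mouse 1), but its sham level rests on 2 reads in mouse 1 and 0 in mice 2 and 3. The 2 and 104 reads over sham and 1 day gave a ratio of 39.3 (95% counting interval 10.6 to 328). Sod2, the mitochondrial superoxide dismutase (-1.11, SE 0.16), and Tnfaip2 (-0.70, SE 0.10) fell, the latter not with scaling by total count only. The feedback inhibitors Nfkbia (0.36, SE 0.20) and Tnfaip3 (0.17, SE 0.19) did not pass the test (edgeR adjusted p = 0.15 and 0.475), and were chosen for mention after their values were seen. With scaling by total count only, 19 target genes were called higher, Nfkbia and Tnfaip3 among them, beside 6860 of all 14124 genes tested. In the same list Tnip1 (0.49, SE 0.14), Tnip2 (0.66, SE 0.15) and Zc3h12a (0.82, SE 0.20) rose, and Tnip3 (-0.89, SE 0.41) did not pass the test. Nfkb2 shares 18.1% of its exonic bases with other genes, which makes its counts uncertain.

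Membrane ligands and receptors of the family are released by proteases. Of 6 shedding genes, 3 rose at 1 day and 0 fell (median log2 fold 0.33), again beside 29.4% and 24.8% of all genes. They were Rhbdf1 (0.84, SE 0.13), Furin (0.56, SE 0.10) and Rhbdf2 (0.52, SE 0.13), and without mouse 6 Timp3 was called lower. The protease gene Adam17 itself, which cleaves Tnf, was at -0.10 (SE 0.09, edgeR adjusted p = 0.346). Of 7 family genes whose symbols fall outside the rule, 3 were tested, and the receptors Relt (1.51, SE 0.27) and Eda2r (0.82, SE 0.14) rose at 1 day, as did 29.4% of all genes tested.

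**Figure D5:**
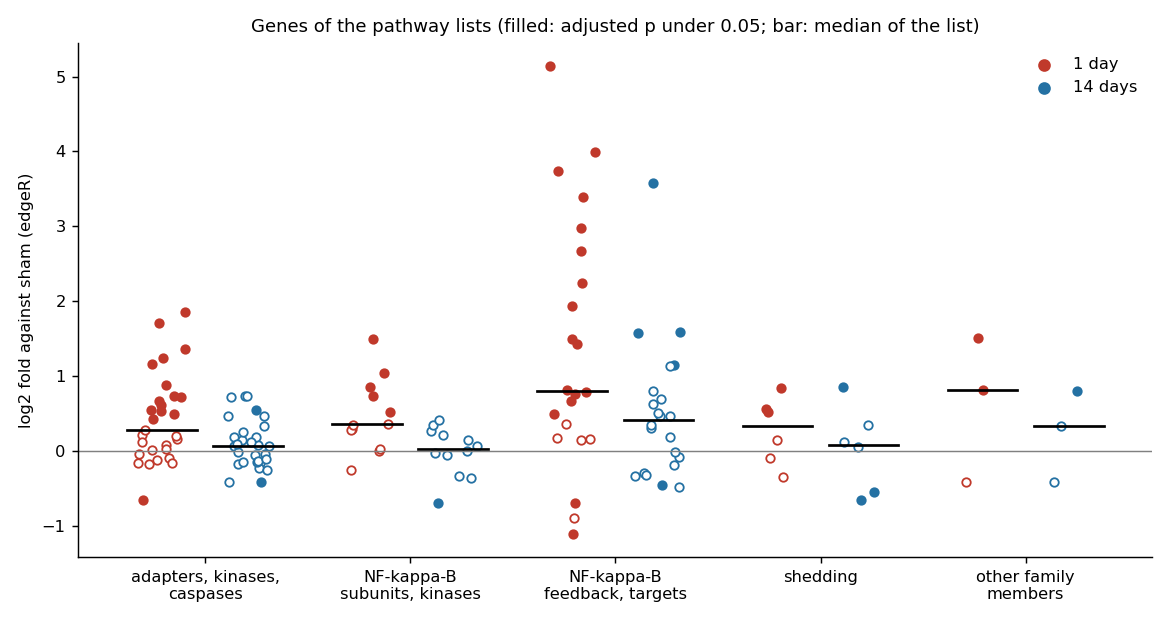
Log2 fold against sham (vertical axis) of each tested gene in 5 lists, at 1 day and 14 days, with filled points where the edgeR adjusted p is under 0.05 and a bar at the list's median. The NF-kappa-B feedback and target list has its median at 0.81 at 1 day and 0.41 at 14 days.

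At 14 days, 8.75% of all genes tested rose against sham and 5.64% fell, the shares beside which the counts of these lists stand. Of the 29 adapters, 1 rose (Casp8, 0.55, SE 0.16) and 1 fell (Rnf31, -0.41, SE 0.11), with a median of 0.07 against 0.01 over all genes. Of the 12 subunit genes, 0 rose and Nfkbib fell (-0.69, SE 0.21, median 0.03). Of the 22 target genes (median 0.41), 4 rose, Il6 (ratio of reads 13.5, counting interval 3.45 to 116, named after its values were seen), Tnfaip6 (1.59, SE 0.42), Ptgs2 (1.57, SE 0.40) and Vcam1 (1.15, SE 0.23), and Tnfaip2 fell (-0.46, SE 0.10). The protease inhibitor gene Timp3 rose (0.85, SE 0.20) while Furin (-0.65, SE 0.10) and Rhbdf2 (-0.55, SE 0.14) fell. The ligand gene Eda rose (0.80, SE 0.24). Nfkbib and Timp3 share 16.4% and 21.3% of their exonic bases with other genes. Without library A, 9 target genes and 4 adapters were called higher, beside 1823 of all 14437 genes tested. Without mouse 6, 5 adapters were called higher, beside 1752 of all 14649 genes tested. Of the calls at 14 days, those of Casp8, Rnf31, Nfkbib, Il6, Tnfaip6, Ptgs2, Vcam1, Tnfaip2, Timp3, Rhbdf2 and Eda were lost without sham mouse 2, and all but that of Vcam1 also without at least 1 other mouse.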

How the data were processed

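RNA of the left ventricle of 9 mice was sequenced, and the groups (3 sham, 3 at 1 day, 3 at 14 days) come from the sample titles. The titles number the mice 1 to 9, the groups share no replicate numbers, and the 3 count columns at 14 days share 1 header, which names 1 mouse. Per the labels' protocols, stranded libraries were made from total RNA depleted of ribosomal RNA. STAR 2.7.1a and the build GRCm38 (mm10) were used, per the submitters' processing notes. The deposited values are whole-number read counts per gene, not normalized by the authors. No source used here names the counting program, its strand setting or how it treats reads that match several places, so genes that share exons or have near copies are uncertain. Names, positions and exon lengths are from GENCODE M21 (36429 of 38293 genes matched).

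Counts were tested with edgeR 4.0.16 (R 4.3.3): quasi-likelihood test with robust dispersion, TMM (trimmed mean) scaling, the filterByExpr filter on low counts and 1 fit of all 9 libraries. The filter kept 14124 genes, over which p was adjusted by Benjamini-Hochberg with a threshold of 0.05. CPM are counts scaled to libraries of 1M after TMM. Library totals were 20.2M to 36.8M counts. Every pair of replicates differed beyond sampling noise (chi-square divided by its degrees of freedom 7.42 to 97.3, over genes with a mean of at least 10 counts). Each count column was taken as 1 mouse and 1 replicate. Alternatives were DESeq2 1.42.0, limma-voom (limma 3.58.1), total count only, upper-quartile scaling, scaling without mitochondrial and ribosomal RNA genes, no filter, at least 1 CPM in 3 libraries, the compared groups alone, and each mouse left out. The members and lists were chosen with earlier results of these data known. Every member is named or counted. From each pathway list the rule for named genes took up to 3 called genes in each direction of each comparison, those with the largest folds whose higher group reached 1 CPM on average. For 14 days against 1 day, list values are given only for Adam17, Birc2 and Xiap. The members of the lists are given by role, with no test of a list. Of the marker lists for 16 cell types, those beside a result are given as summed CPM. Figures were drawn with matplotlib 3.10.9.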

Additional observations from a re-analysis of the deposited data

Results flagged for a closer look

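The difference between the changes at 14 days and at 1 day, both against sham, is the same quantity as 14 days against 1 day, and it passed the edgeR test (Benjamini-Hochberg adjusted p under 0.05) in 12 of the 20 tested family members, where 51.9% of all genes tested passed. On the log2 scale the later change lay below the earlier one by the largest amounts in Tnf (-2.44), Tnfrsf12a (-2.14), Tnfrsf10b (-1.40), Tnfrsf23 (-1.36) and Tnfrsf22 (-1.16). Without library B the difference in Tnf was -3.55. The differences were smaller in Tnfrsf11a (-0.85), Tnfrsf1a (-0.84), Ltbr (-0.58) and Tnfrsf1b (-0.58). The later change lay above the earlier one in Tnfrsf19 (2.23), Tnfsf10 (0.74) and Fas (0.63). The call of Tnfrsf1b was lost without mouse 4 or mouse 5 and in a fit of only the groups compared (adjusted p = 0.0532), and without library A its difference was -0.37, still called. That of Tnfrsf22 was lost without mouse 4, mouse 5 or library A. Those of Fas and Tnfsf10 were lost with scaling by total count only.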

How the results depend on the processing

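Scaling by total count only raised the median log2 fold of all genes by 0.48 at 1 day against sham (6860 higher and 1057 lower, against 4153 and 3496) and lowered it by -0.39 at 14 days against 1 day (1066 higher and 5469 lower, against 3547 and 3788). Under it, 1 family member was lower at 1 day (Tnfsf10 was lost), 1 was higher at 14 days than in sham, and 1 was higher at 14 days than at 1 day. For 14 days against 1 day, the log2 folds of Adam17 (0.22 to -0.16), Birc2 (0.32 to -0.07) and Xiap (0.30 to -0.07) then changed sign. With no filter 5 members were higher at 14 days than at 1 day, because more members were tested, and for 14 days against sham it lost Tnfrsf11b and gained Tnfrsf11a. For 14 days against sham, 1 member was higher with a filter of 1 CPM, in which Tnfrsf11b was not tested, and 1 with limma-voom. A fit of sham and 14 days alone also left Tnfrsf11b untested, and called Fas and Tnfrsf11a higher. With each mouse left out in turn, 10 to 15 members were higher and 1 to 2 lower at 1 day, 0 to 6 higher and 0 lower at 14 days, and 3 higher and 7 to 12 lower at 14 days against 1 day. Some of the counts at 1 day include Ltb, Tnfsf14 or Tnfsf9, which the main filter left out. Without library A 6 were higher at 14 days, and without sham mouse 1, sham mouse 2, library B or library C 0 were. Over the other alternatives, 8 to 14 members were higher at 1 day. The 8 were with the filter of 1 CPM (3877 of 12593 genes higher), in which Tnfrsf13b, Tnfrsf22 and Tnfrsf26 were not tested. The 14 were with no filter (4256 of 24016 genes higher), which added Ltb, Tnfsf14 and Tnfsf9. The cause of these shifts was not tested. No paired analysis was possible because the groups share no replicate numbers. Members with few reads, 20 of 40, are limited by depth. Tnfsfm13, which had 0 reads, shares 78.1% of its exonic bases with other genes, and the part this plays was not tested.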
